A study of Mus musculus with 2 samples.

Results

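The mouse Hoxa cluster on chromosome 6 was examined for binding of CTCF through its 10 member genes Hoxa2, Hoxa3, Hoxa4, Hoxa5, Hoxa6, Hoxa7, Hoxa9, Hoxa10, Hoxa11 and Hoxa13. Every peak summit lying in chr6:52145590-52270880 on the mouse assembly mm10, a window of 125.291 kb, was taken and placed relative to these genes, together with 100 kb on either side. The choice used position alone and no peak height. The window held 11 of the 73465 summits of the optimal list, which keeps the peaks that passed the authors' cut on IDR, the irreproducible discovery rate, a score of agreement between replicate rankings. The full replicate lists placed 54 summits there in replicate 1 and 57 in replicate 2, of 300000 each.

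The data are chromatin immunoprecipitation and sequencing (ChIP-seq) with an antibody to CTCF in whole intestine of B6NCrl mice at postnatal day 0. There is 1 group and no other genotype, treatment or age, so all values below are descriptions and no difference between conditions was tested. The tissue was powdered gut combined from several dissections, which mixes all cell types of the gut wall, and sex was not recorded. The 2 libraries are named biological replicates but carry the same biosample label, so the spread between them may be technical. Peak lists measure no expression, so the tissue label could not be set against marker genes.

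The zinc-finger protein CTCF recognises a long, directional DNA motif and, with cohesin, halts the extrusion of chromatin loops. Loops tend to form between sites whose motifs point towards each other, and such sites often stand at the boundaries of chromatin domains. Hox genes encode homeodomain transcription factors that pattern the body axis, the limbs and the gut, and their order along the chromosome follows the order of the body regions in which they are active. In mouse motor neurons, CTCF sites between Hoxa5 and Hoxa9 are known to separate active from Polycomb-silenced parts of the cluster.

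The 11 summits are numbered 1 to 11 in order of rising coordinate, from the Hoxa2 end to the Hoxa13 end. They are introduced by sequence because the strength of the CTCF motif and its strand vary between them. Each line gives, for 1 site, the 19 bases with the best score of the CTCF matrix within 100 bases of the summit, in capitals, and 5 bases on either side in lower case, read 5′ to 3′ on the strand of the motif. A motif was called where the score, a sum of log2 odds over the 19 positions, reached 8.93. This value was reached by 5% of the training peaks' flanking windows 1 kb away. The most frequent base at each position of the matrix reads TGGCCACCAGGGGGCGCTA, and the sequence comes from the RefSeq copy of the assembly. The 5 called sites come first.
Site 3, chr6:52191261-52191289, plus strand: agcagCGGGCACGCGGGGGCGCTGccccc
Site 6, chr6:52204650-52204678, minus strand: cccagTCTCCAGCGGGTGGCGCTCgagtc
Site 8, chr6:52221800-52221828, minus strand: agaaaATTCCAGGAGATGGCAGTGtggct
Site 9, chr6:52240532-52240560, minus strand: cgcagCCGCCACGAGATGGCGCACtcccg
Site 10, chr6:52257113-52257141, plus strand: gcttgTCAACACGAGGTGGCGCCCttgat
The best matches of sites 1, 2, 4, 7 and 11 stayed below the threshold, as did that of site 5, which is not printed.
Site 1, chr6:52186710-52186738, plus strand: cattcCATCCTCTTGGTGGTGCAAaacag
Site 2, chr6:52190422-52190450, plus strand: caggcGGGCCGGCAGGGGCCGAGGcagtg
Site 4, chr6:52194764-52194792, minus strand: aacaaAATGCACACGGTGTCACTGttcgg
Site 7, chr6:52211716-52211744, plus strand: ggcgaCGGCCACAGCGTGGCAGCAgcgag
Site 11, chr6:52270694-52270722, plus strand: atcttTCCCCACTAGATGTCTTCCaagtt

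The cluster fell into an empty end and an occupied end. No optimal summit lay in the first 41.129 kb of the window, which holds the coding exons of Hoxa2 and Hoxa3. From site 1, between the coding spans of Hoxa3 and Hoxa4, to site 11, beyond Hoxa13, the 11 summits covered 83.983 kb with gaps of 0.785 to 18.726 kb. The median gap was 7.138 kb, against 12.046 kb between neighbouring optimal summits in all. Below site 1 the nearest optimal summit was 83.874 kb away, and 8.20% of all neighbouring optimal summits were at least that far apart. Beyond site 11 the next one followed after 21.214 kb. The peak signal quoted here is the authors' own value for each peak, of unstated normalization, and it ranks peaks within a list only. In a whole tissue, binding in fewer cells and weaker binding in each cell cannot be told apart.

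**Figure D1:**
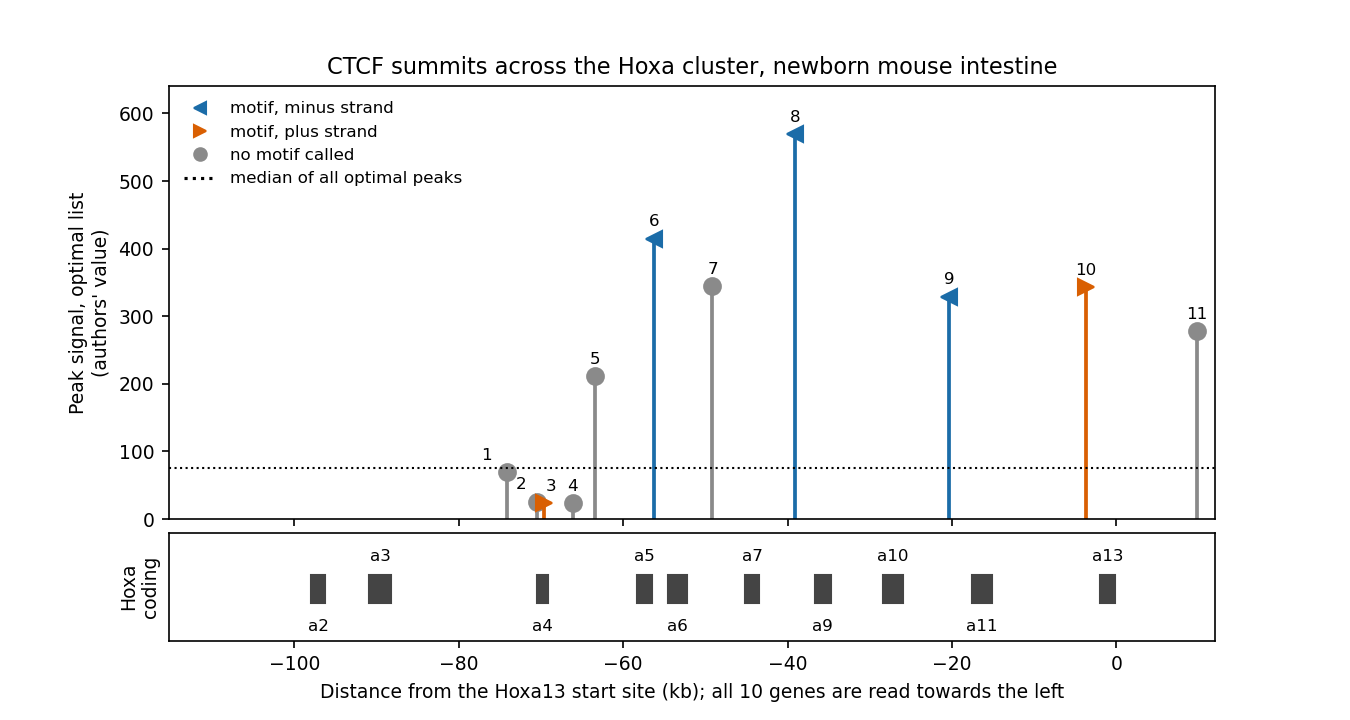
Peak signal in the optimal list (authors' value, vertical axis) of the 11 CTCF summits against distance from the Hoxa13 start site in kb, with the coding spans of the 10 genes below; triangles point in the direction of a called motif, circles mark summits without one, and the dotted line is the median signal of all optimal peaks, 76.0. Sites 1 to 4 lie under the line, sites 5 to 11 between 211 and 569 lie above it, and the left part with Hoxa2 and Hoxa3 has no summit.

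The strongest summits stood between or beyond the coding spans of genes in the middle and at the Hoxa13 end of the cluster. Here and below, a place between named genes means between their coding spans. Sites 5, 6 and 7 lay in introns of Hoxa3. Of the 11, 7 had a signal above the median of all optimal peaks. Their signals were 211 to 569, and the other 4, all near Hoxa4, had 23.3 to 69.5. Only sites 6 and 8 passed the level reached by the strongest 10% of all optimal peaks, 378. The median of the 11 was 279, which was above 80.7% of all optimal peaks. The 4 weak peaks were each exactly 310 bases wide, the commonest width of the optimal list, shared by 50.7% of its peaks. The 7 stronger ones were 247 to 366 bases wide.

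Site 8, at chr6:52221806 between Hoxa7 and Hoxa9, was the strongest summit of the window. It had a signal of 276 in replicate 1, 294 in replicate 2 and 569 in the optimal list. It ranked number 551 in replicate 1, number 351 in replicate 2 and number 420 in the optimal list, with 99.4% of the optimal peaks weaker. The summit lay 48 bases from the start of a longer Hoxa7 transcript, in its 5′ UTR, and 4.301 kb upstream of the principal Hoxa7 TSS (transcription start site). Hoxa7 is expressed in the trunk, and Hoxa9 is known for its part in haematopoietic stem cells and leukaemia.

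Site 6, at chr6:52204656, was the second strongest and stood 69 bases upstream of the TSS of Hoxa5, a gene needed for lung and axial skeleton development. Its signal was 200 in replicate 1 (rank 5720), 216 in replicate 2 (rank 4747) and 415 in the optimal list (rank 5203). It was the single summit inside the RefSeq promoters of the member genes, which run from 250 bases before to 50 after a start on GRCm38.p6, the same assembly as mm10. Such windows were found for 9 of the 10 members, 10 windows in all, and 1 of the 10 held an optimal summit, against 11.9% of 32619 RefSeq promoter windows. Matrix matches at the threshold, on either strand, lay in 2 of the 10, those of Hoxa5 and Hoxa9, against 9.57% of all. The Hoxa9 match scored 8.95, just over the threshold, and had no summit. The 250 bases upstream of Hoxa5 are shown because the CTCF motif, in capitals, sits in this promoter.
Hoxa5 promoter, chr6:52204588-52204837, minus strand: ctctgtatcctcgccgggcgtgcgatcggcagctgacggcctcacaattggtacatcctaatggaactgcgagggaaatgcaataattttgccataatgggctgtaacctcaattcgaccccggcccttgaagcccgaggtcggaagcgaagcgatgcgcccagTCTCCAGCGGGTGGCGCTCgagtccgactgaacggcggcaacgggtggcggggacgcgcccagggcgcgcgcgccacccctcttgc

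Sites 7, 9 and 10 had signals close to each other. Site 7, at chr6:52211744 between Hoxa6 and Hoxa7, had 165 in replicate 1 (rank 10179), 180 in replicate 2 (rank 9026) and 344 in the optimal list. Site 9, at chr6:52240532 between the coding spans of Hoxa10 and Hoxa11, had 153 in replicate 1 (rank 11906), 179 in replicate 2 (rank 9177) and 329 in the optimal list. Site 10, at chr6:52257141 between Hoxa11 and Hoxa13, had 168 in replicate 1 (rank 9804), 176 in replicate 2 (rank 9505) and 343 in the optimal list. In replicate 1 the order from strong to weak was 10, 7, 9, and in replicate 2 it was 7, 9, 10, so their order did not hold between the libraries. Site 9 was 263 bases from the start of a longer Hoxa10 transcript, in a 5′ UTR or noncoding exon of Hoxa10. Site 10 was 3.739 kb downstream of the Hoxa13 TSS, in a noncoding exon of the gene 9530018H14Rik. Hoxa10 and Hoxa11 pattern the uterus, Hoxa11 also the forearm, and Hoxa13 the digits, the hindgut and the urogenital tract.

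Sites 5 and 11 were the outermost of the 7 stronger summits. Site 5, at chr6:52197468 between Hoxa4 and Hoxa5, had 110 in replicate 1 (rank 18171), 102 in replicate 2 (rank 20250) and 211 in the optimal list. Site 11, at chr6:52270703, had 146 in replicate 1 (rank 12864), 133 in replicate 2 (rank 15552) and 279 in the optimal list. It was intergenic, 9823 bases upstream of the Hoxa13 TSS, and only 0.178 kb inside the edge of the window, so a slightly narrower window would leave it out.

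The 4 weak summits lay around Hoxa4. Site 1, at chr6:52186720, had 39.1 in replicate 1 (rank 35807), 28.7 in replicate 2 (rank 43062) and 69.5 in the optimal list, and 68% of the 200 bases around it were repeat-masked. Sites 2 and 3, at chr6:52190413 and chr6:52191198, were the only optimal summits inside a coding span of a member, both in coding exons of Hoxa4. Site 2 had 9.95 in replicate 1 (rank 75063) and 14.4 in replicate 2 (rank 62464). Site 3 had 14.4 in replicate 1 (rank 60733) and 10.4 in replicate 2 (rank 75076). Site 4, at chr6:52194764 between Hoxa4 and Hoxa5, had 9.42 in replicate 1 (rank 77570) and 13.9 in replicate 2 (rank 63628). Each of sites 2, 3 and 4 therefore ranked beyond 73465, the size of the optimal list, in one of the libraries. Site 3 was the strongest of them in replicate 1 and the weakest in replicate 2, while site 2 stayed above site 4 in both.

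**Figure D2:**
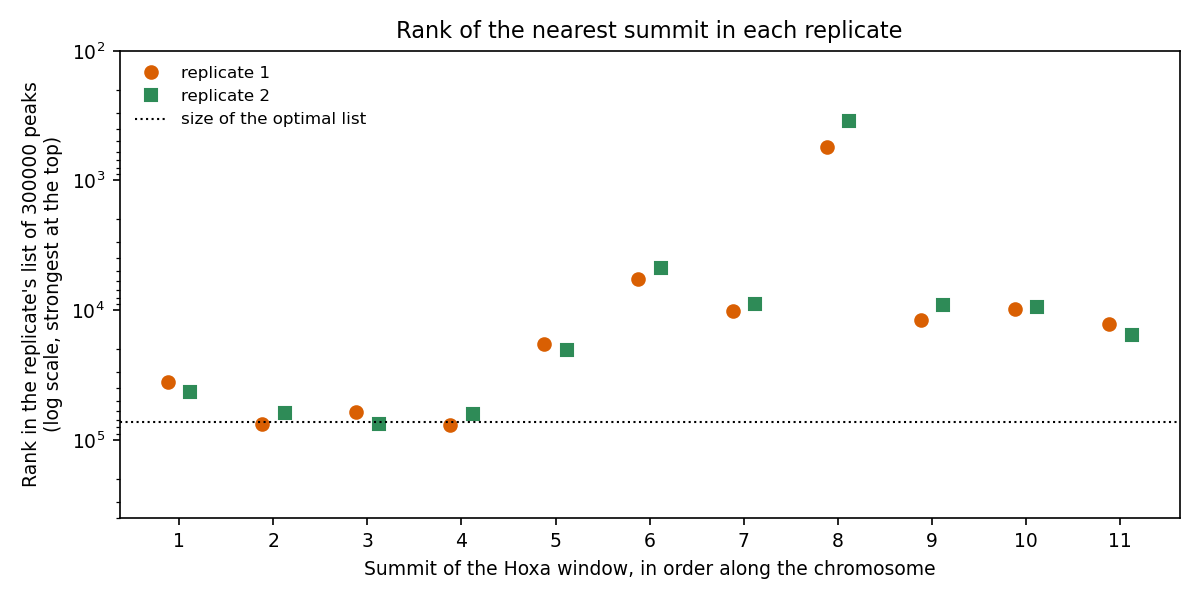
Rank in each replicate's list of 300000 peaks (log scale, strongest at the top) of the summit nearest to each of the 11 Hoxa summits, in order along the chromosome; the dotted line marks the 73465 peaks of the optimal list. Site 8 leads in both libraries, sites 5 to 11 rank between 351 and 20250, and sites 2, 3 and 4 lie close to the line.

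All 11 summits were found in both replicate lists within 100 bases, as were 97.4% of all optimal summits. All 11 were also in the conservative IDR list, which held 70556 peaks against 73465 in the optimal list. The share of all optimal summits found in the conservative list was not computed, so 11 of 11 does not set the Hoxa summits apart. The nearest replicate summit was 0 to 59 bases away. Site 8 came first and site 6 second in both libraries, and sites 11, 5 and 1 followed after sites 7, 9 and 10 in the same order in both. The replicate lists held a further 43 window summits in replicate 1 and 46 in replicate 2. Their median signals were 3.57 and 3.94 in that order, and the medians of the whole lists were 4.23 and 4.41. At the 11 sites the medians were 146 in replicate 1 and 133 in replicate 2. The further summits are those left once the 11 sites are taken out, while the whole lists keep their strong peaks. The direction of these differences was therefore largely set in advance. Of the further summits, 14 in each library had a partner within 100 bases in the other library. The same share over the whole lists was not computed, so this count cannot be called high or low. The strongest of them in replicate 2, in the coding span of Hoxa5, had a signal of 10.2 (rank 76119). The strongest in replicate 1, between Hoxa6 and Hoxa7, had a signal of 9.16 (rank 78947), and 9.07 in replicate 2 (rank 81807). It was the 1 window summit that the conservative list added to the 11, at chr6:52213851.

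The summits were more closely spaced in the Hoxa window than beside it. The optimal list gave 8.78 summits per 100 kb in the window (11, exact 95% Poisson interval 5.49 to 19.7 for counting error only), against 2.5 per 100 kb in the flanks, where it had 3 below and 2 above. The ratio was 3.51, with an exact interval of 1.12 to 12.9 for counting error only. Chromosome 6 as a whole had 2.78 summits per 100 kb and chromosomes 1 to 19 and X had 2.87. Among 20460 windows of the same length tiled along these chromosomes the median was 2 summits, and 7.56% held 11 or more. The full replicate lists gave ratios of window over flanks of 3.45 in replicate 1 and 3.64 in replicate 2. Restricted to as many of the strongest peaks as the optimal list holds, they gave 7.18 without replicate 2 and 2.66 without replicate 1. In the first 41.129 kb, where the optimal list had none, replicate 1 had 10 summits and replicate 2 had 15, each with a lower signal than that replicate had at any of the 11 sites.

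**Figure D3:**
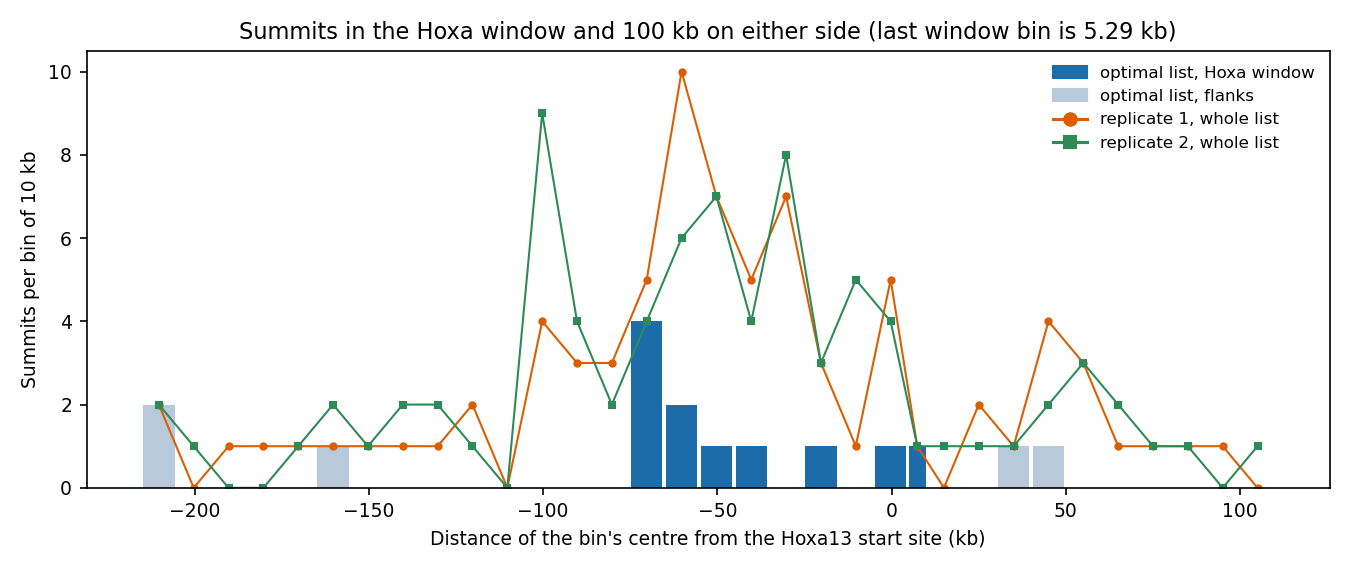
Summits per bin of 10 kb (vertical axis) against distance of the bin's centre from the Hoxa13 start site in kb, with bars for the optimal list in the window (dark) and its flanks (pale) and lines for the whole replicate lists. The 11 optimal summits of the window crowd from Hoxa4 onwards, while the lines of both replicates rise from Hoxa2 onwards, also where no bar stands.

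The flanks held a single strong summit. It was at chr6:52306059, 35.2 kb beyond the window and 7.439 kb from the TSS of Evx1, a homeobox gene next to the cluster. This summit had a signal of 354 (rank 8912 of the optimal list) and a plus-strand motif with a score of 9.98, near the threshold. The strongest summit of the lower flank, at chr6:52045732, had a signal of 91.0 and no motif. The other 3 flank summits had signals of 20.0.

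Of the 11 Hoxa summits 5 had a CTCF motif (45.5%, exact 95% binomial interval 16.7 to 76.6 for counting error only), against 71.5% of all optimal summits. Strong peaks of the series nearly all have a motif, so the stronger Hoxa summits were also read against peaks of like height, a cut chosen after their values were seen. Of the 7 stronger summits 4 had one (57.1%, exact interval 18.4 to 90.1), against 91.8% of the 19248 optimal summits with at least the signal of the weakest of the 7. Neighbouring summits are not independent and the second cut followed the values, so neither interval is a test against these shares. The 91.8% also covers the 5000 peaks that trained the matrix, whereas no peak of chromosome 6 trained it. Of the 4 weak summits 1 had a motif. The scores of the called motifs at sites 6, 8, 9 and 10 were 15.0, 13.8, 15.5 and 14.9. They were near the median of all called motifs, 14.9, which covers peaks of every height. With optimal peaks binned by log10 signal, the commonest score bin began higher, at 17 for peaks like site 6. It began at 19 for peaks like site 8 and at 16 for peaks like sites 9 and 10. Site 3 scored 10.1, with its motif 77 bases from the summit.

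**Figure D4:**
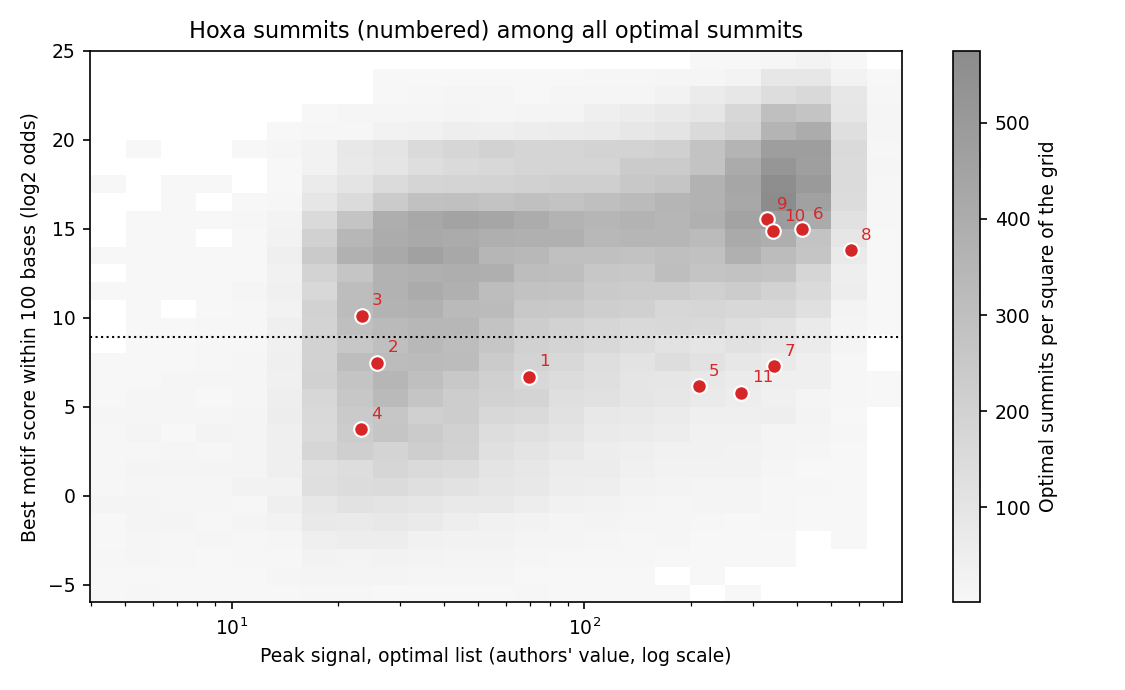
Best motif score within 100 bases of the summit (log2 odds, vertical axis) against peak signal in the optimal list (authors' value, log scale) for the 11 numbered Hoxa summits, over the counts of all optimal summits in grey; the dotted line is the threshold of 8.93. Sites 5, 7 and 11 have signals of 211, 344 and 279 at scores of 6.14, 7.26 and 5.77, in a part of the plot where few optimal summits lie.

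Sites 5, 7 and 11 were strong but had no called motif, with best scores of 6.14, 7.26 and 5.77. Substitutions are written as the consensus base, the position counted from 1 at the 5′ end of the 19 bases, and the base of the site. The matrix had 8 positions with at least 1 bit of information and 3, numbers 5, 10 and 13, with at least 1.8 bits. The 5 called motifs kept the consensus at all 3 of these, but so did best matches that were not called, such as those of sites 1, 2 and 4. The bases of site 5 are not reported here. Site 7 differed by A9G and G10C among the 8, bases found at those positions in 3.76% and 0.16% of the training sites. Site 11 kept all 3 and differed by G11A and G14T among the 8, bases found in 38.8% and 5.9% of the training sites. The rarest bases of site 11 lay outside the 8, at G16T (1.26%) and C17T (3.32%). Sites 6, 8, 9 and 10 each matched 7 of the 8, differing by A9G, G11A, G11A and C4A. A search within 150 bases, chosen after the first result was seen, gave the same scores. The whole peaks of sites 7 and 11 are shown because no motif was called in them; they are on the plus strand with the best-scoring 19 bases in capitals.
Site 7 peak, chr6:52211601-52211880: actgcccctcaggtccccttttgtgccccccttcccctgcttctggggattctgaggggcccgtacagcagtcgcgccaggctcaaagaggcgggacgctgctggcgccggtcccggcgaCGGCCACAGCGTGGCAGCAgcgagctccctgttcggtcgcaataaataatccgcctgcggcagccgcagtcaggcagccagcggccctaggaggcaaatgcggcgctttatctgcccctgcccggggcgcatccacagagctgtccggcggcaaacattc
Site 11 peak, chr6:52270581-52270837: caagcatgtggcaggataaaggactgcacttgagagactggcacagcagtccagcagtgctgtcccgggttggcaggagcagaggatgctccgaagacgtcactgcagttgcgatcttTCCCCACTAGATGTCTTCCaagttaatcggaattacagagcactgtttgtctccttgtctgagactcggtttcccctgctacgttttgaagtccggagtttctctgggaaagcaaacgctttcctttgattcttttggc

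The called motifs ran on the minus strand at sites 6, 8 and 9 and on the plus strand at sites 3 and 10. All 10 member genes are on the minus strand. The motifs of sites 6, 8 and 9, which lie between Hoxa5 and Hoxa11, were on the minus strand too and so pointed towards the Hoxa2 end. The motif of site 10 was on the plus strand and pointed outwards past Hoxa13. That of the Evx1 summit in the flank pointed the same way. Its score of 9.98 was near the threshold of 8.93 and below 14.2, the score reached by 1% of flanking windows. The weak site 3 in Hoxa4 was also on the plus strand, but its call was lost without replicate 1, with a search within 50 bases, at the score reached by 1% of flanking windows (where site 8 was lost too) and among peaks above the median signal, and the convergent pair with it. Of the 4 neighbouring pairs, sites 3 and 6 were convergent, sites 6 and 8 and sites 8 and 9 were tandem, and sites 9 and 10 were divergent. Among all 52339 neighbouring pairs of motif-bearing optimal summits 23.6% were convergent, 52.7% tandem and 23.7% divergent.

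The sequence around the Hoxa summits was rich in CpG. In 200 bases around the summit the median ratio of observed to expected CpG was 0.646 in the window (range 0.0945 to 1.05), against 0.216 over all optimal summits. The median GC share was 55.5% against 49.5%. CpGs also lay within the motifs: 4 of the 5 called motifs of the window held 2 or more, against 8.12% of the 52522 called motifs of the optimal list. Site 9 held 3 CpGs within its 19 bases, site 3 held 4, sites 6 and 10 held 2 each, and site 8, the strongest, held none. Of the whole window 14.3% was repeat-masked, against 29.9% of the lower flank, 37.4% of the upper flank and 33.8% of chromosome 6.

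Most sequences that match the matrix in the cluster had no summit. The matrix matched 24 times in the window at the threshold, and 5 of these (20.8%) had an optimal summit within 100 bases. In the flanks 1 of 10 matches below and 1 of 16 above had one, and over chromosomes 1 to 19 and X the share was 14.4% of 380805. At a stricter score, reached by 1% of the flanking windows, the window held 3 matches, those of sites 6, 9 and 10, and all 3 had a summit. The share over the chromosomes was 54.2% of 56489 such matches. In the flanks the stricter score found 2 matches below and 1 above, none with a summit.

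Of the 10 member genes 9 had a summit of the optimal list at most 10 kb from any annotated TSS, against 73.0% of all 21755 protein-coding genes. With 1 TSS per gene, that of the principal coding transcript, the count was also 9, against 67.0%. Neighbouring genes share summits in a cluster this dense, so the members are not independent. Hoxa2, which patterns the hindbrain and the second pharyngeal arch, was the exception, with its TSS at chr6:52164831 and the nearest summit, site 1, 21.889 kb upstream. Within 2 kb the count was 3 of 10 for the principal TSS, against 43.8% of protein-coding genes, and 5 of 10 for any TSS, against 52.8%.

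Hoxa3, a gene of thymus and parathyroid development, has long transcripts that run over Hoxa4, Hoxa5 and Hoxa6. Its principal TSS is at chr6:52213115, which put site 7 at 1.371 kb inside the gene although its coding exons are in the empty end. Hoxa4, with its TSS at chr6:52191753, had the most optimal summits within 10 kb of the principal TSS, 5, among them the weak sites 1 to 4. The nearest, site 3, was 0.555 kb downstream, but without replicate 1 the nearest summit was at 1.314 kb. Among the 73465 strongest peaks of a single replicate Hoxa4 had 3 in replicate 1 and 4 in replicate 2, the same counts as Hoxa5. Hoxa5, with its TSS at chr6:52204587, had 4, and site 6 was the nearest, at 0.069 kb. The closest summit of Hoxa6 (TSS at chr6:52208722) was site 7, at 3.022 kb.

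From Hoxa7 to Hoxa13 each gene had 1 or 2 optimal summits within 10 kb of the principal TSS, the nearest 3.739 to 5.593 kb away, although sites 8 and 9 lay close to the starts of longer Hoxa7 and Hoxa10 transcripts. Hoxa7 (principal TSS at chr6:52217505) was 4.301 kb and Hoxa9 (chr6:52227370) 5.564 kb from site 8. Hoxa10 (chr6:52234939) was 5.593 kb and Hoxa11 (chr6:52245810) 5.278 kb from site 9. Hoxa13 (chr6:52260880) was 3.739 kb from site 10. Each interval between neighbouring coding spans from Hoxa3 to Hoxa13 held 1 or 2 optimal summits, except that between Hoxa9 and Hoxa10, which held none in 6.404 kb.

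Genes that work with the Hoxa genes were read in the same way, from a list chosen with results of these data known. An optimal summit at most 10 kb from a TSS was again counted, against 73.0% of protein-coding genes. Of the Cdx factors that switch on Hox genes 2 of 3 had one, of the retinoic acid genes 5 of 5, and of the Polycomb and trithorax genes, which keep Hox genes silent or active, 7 of 7. Leaving out the neighbours of the cluster, the strongest peaks of the list were those of Rarg, a retinoic acid receptor (471), Men1, a partner of trithorax-group methyltransferases (446), and Cdx1 (442). Cdx4 had none. Of 10 neighbouring and embedded genes of the cluster, coding and noncoding, 7 had a summit, against 55.2% of 53843 annotated genes of every kind, and those without were Snx10, Hotairm1 and Hoxaas2. Hotairm1 and Hoxaas2 are noncoding genes in the empty end.

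The other Hox clusters, measured over the span of their coding genes and 10 kb on either side, are given for their values alone. The Hoxa window had 8.78 summits per 100 kb, a median signal of 279 and a strongest signal of 569. The Hoxb cluster had 17 summits, 8.82 per 100 kb, a median signal of 80.8 and a strongest of 442. The Hoxc cluster had 7, 5.19 per 100 kb, with 96.9 and 391. The Hoxd cluster had 10, 8.61 per 100 kb, with 189 and 494. A motif was called at 5 of 11 summits of the Hoxa window, against 11 of 17 Hoxb, 6 of 7 Hoxc and 6 of 10 Hoxd summits, and none of these differences was tested.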

How the data were processed

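CTCF ChIP-seq of newborn mouse intestine was available as peak lists on mm10 for each replicate, for pooled reads and for 2 IDR-thresholded sets. Per the file descriptions, the pooled list was derived from the 2 replicate alignments plus 1 file whose role is unstated. The aligner, the peak caller, their versions and the IDR cut were not given in the sources used here. The signal of a peak is the enrichment value the authors deposited, with no stated normalization; the optimal list carries the pooled list's summits and signals, so it is not independent of that list. The summit is the offset the authors deposited, added to the peak start. No read counts were used, so depth is unknown and intervals cover counting of peaks only.

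Summits were placed on GENCODE annotation M21. A 19-base CTCF matrix was trained in 6 rounds, with a pseudocount of 1, on the 5000 strongest optimal peaks of chromosomes other than 6, and searched within 100 bases of each summit on both strands. It was tested on simulated data with planted motifs. The members, gene lists and tests were chosen with earlier results of these data known. Named genes were every member, the 3 listed genes with the strongest summit within 10 kb and every listed gene without one. Of these, 1 listed gene with its group's count and 1 peak sequence are not reported here. Named summits were all of the window and the strongest of each flank. Further neighbours and the weaker flank summits were named after their values were seen. Alternatives were other lists, flank widths, distances, thresholds and search windows, and leaving out a replicate, where the other one's 73465 strongest peaks stood in. Tools were samtools 1.23.1, pysam 0.24.0, matplotlib 3.10.9, numba 0.67.0, scipy 1.17.1 and numpy 2.4.6 under Python 3.11.15.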

Additional observations from a re-analysis of the deposited data

How the results depend on the processing

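The window held 12 summits in the conservative list, 9 to 10 with a replicate left out, 7 among peaks above the median signal and 57 in the unthresholded pooled list. The ratio of window over flank density was 2.66 to 7.18 with a replicate left out and 2.76 to 6.39 in the other settings, within its counting interval. Genes with a summit near any TSS were 5 at 2 kb, against 52.8% of protein-coding genes. They were 10 at 50 kb and in the unthresholded pooled list, and 9 in the other settings. The share over all genes was not computed at 50 kb or for the other lists, so those counts cannot be called high. Motif calls fell to 3 at the stricter threshold, where sites 3 and 8 dropped out, and were 4 or 5 in the other settings, including the 150-base search chosen after seeing the data. Site 3 also lost its motif when the search was cut to 50 bases. The median Hoxa peak was stronger than 76.3% of the conservative list, 51.8% of the pooled list and 82.9% to 83.8% with a replicate left out. Over 500 bases the window medians were 54.2% GC, 0.628 for CpG observed over expected and 8.2% repeat-masked, against 47.4%, 0.226 and 14% over all optimal summits. The cause of these shifts was not tested. No paired analysis was possible because the series has 1 group. The 2 libraries share a biosample label, read depth is unknown, weak summits near Hoxa4 depend on which library is used, and a single mark in mixed tissue cannot say in which cells a site is bound.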
